A study of Mus musculus with 12 samples.

Results

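Sestrins and CASTORs are protein families known for members that report leucine or arginine to the growth kinase complex mTORC1. The mRNAs of their 5 genes are described here (Sesn1, Sesn2, Sesn3, Castor1 and Castor2). They were chosen by name from the 53351 genes of the deposited table, and all 5 were found and passed the filter on low values. Castor1 and Castor2 stand in that table under their older symbols, Gatsl3 and Gatsl2, and were matched through their Ensembl gene IDs. Measurements came from wild-type mouse primary neural progenitor cells, dissociated from the cerebral cortex at E13.5 and cultured overnight. Cells were given 250 nM Torin1, an ATP-competitive mTOR inhibitor, or DMSO, its solvent, for 2 h. All cells then received 100 ug/ml cycloheximide for 5 min, which holds ribosomes on mRNA, and were lysed. The input, 10% of a lysate, gave total mRNA, and gradient fractions carrying more than 3 ribosomes gave polysome mRNA. The 12 libraries form 4 groups of 3 replicates, which the titles call biological: polysome Torin1, polysome DMSO, total Torin1 and total DMSO.

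When leucine or arginine is scarce, their sensors SESN2 and CASTOR1 bind the GATOR2 complex and hold it inactive. GATOR1 is then free to switch off the Rag GTPases, and mTORC1 leaves the lysosome. Binding of the amino acid releases the sensor, as shown largely in human cells. The Sestrin genes are also known as stress genes. Sesn2 is induced through ATF4, NRF2 and p53, Sesn1 was found as a p53 target, and Sesn3 is a FOXO target. Torin1 acts on the mTOR kinase itself, downstream of all of these sensors.

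Promoter sequences of the 3 Sestrin genes are shown because the genes are known for upstream factors that differ in part, while their mRNAs were measured in the same libraries. The sequences come from RefSeq (GRCm38.p6) and cover the 250 bases before a start, read 5′ to 3′ in the direction of the gene. Capitals mark a match to a searched motif. Sesn2 is taken from the minus strand at chr4:132510457-132510706, Sesn1 from the plus strand before its second listed start at chr10:41887189-41887438, and Sesn3 from the plus strand at chr9:14276051-14276300.
Sesn2: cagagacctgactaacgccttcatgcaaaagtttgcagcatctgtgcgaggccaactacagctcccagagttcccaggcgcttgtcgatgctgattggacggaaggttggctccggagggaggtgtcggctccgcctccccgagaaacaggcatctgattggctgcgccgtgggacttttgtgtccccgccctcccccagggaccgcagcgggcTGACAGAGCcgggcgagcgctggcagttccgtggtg
Sesn1: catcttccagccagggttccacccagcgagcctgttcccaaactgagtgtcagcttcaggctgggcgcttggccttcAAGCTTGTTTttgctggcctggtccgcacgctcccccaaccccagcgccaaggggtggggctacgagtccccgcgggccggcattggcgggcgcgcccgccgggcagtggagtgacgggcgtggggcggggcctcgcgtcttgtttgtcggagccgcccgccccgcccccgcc
Sesn3: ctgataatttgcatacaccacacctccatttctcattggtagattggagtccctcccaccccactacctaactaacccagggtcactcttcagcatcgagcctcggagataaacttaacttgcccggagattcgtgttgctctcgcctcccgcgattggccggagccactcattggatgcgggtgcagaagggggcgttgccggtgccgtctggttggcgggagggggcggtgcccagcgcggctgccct

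The search covered both strands of 300-base windows that also take in the first 50 bases after each start. Of 32851 such windows, 3.97% held TGATGNAA, the composite site of ATF4 with C/EBP, 3.65% held GTAAACA, the FOXO motif, and 12.4% held TGACNNNGC, the core of the antioxidant response element that NRF2 binds. TCACGTGA, an E-box of lysosomal genes, was in 0.974%, and the p53 response half-site in 8.36%. Among the members, the Sesn2 window matched only the antioxidant element, as TGACAGAGC on the strand of the gene, with its first base at -36 from the start. The window at the first Sesn1 start held the FOXO motif on its reverse strand, with its first base at +23, shown here in the letters of the gene's strand.
Sesn1, first start: ccttctacTGTTTACcagccttt
At the second Sesn1 start, AAGCTTGTTT matched the p53 half-site at -173. The searched half-site reads the same on either strand, so this is a single site. The Sesn3, Castor1 and Castor2 windows held none of these letters, which says nothing of sites elsewhere.

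The deposited signal is not a read count, so how deeply each library was sequenced is unknown, and a library's signal summed to between 14341674 and 19201406. Levels below are rescaled abundances as ppm of a library's rescaled total, with the mean ± SD of n = 3 libraries. Levels of different members are not compared, since transcript lengths were not used here. Where other genes are called most abundant or highest, that is by ppm alone, without regard to length. Folds are Torin1 over DMSO, or polysome over total, on the log2(value + 1) scale of the rescaled signal, with a standard error (SE). A gene is said to rise or fall where its adjusted p is under 0.05 in limma, with Benjamini-Hochberg adjustment over the 20240 genes tested. Markers of the labelled cells were present: all 9 progenitor markers were found, and they summed to 3930 to 4030 ppm in total Torin1 libraries and 3450 to 3560 ppm in total DMSO libraries. In polysome mRNA the progenitor sums overlapped, at 4570 to 6950 ppm with Torin1 and 4980 to 6050 ppm with DMSO. Fabp7 (1820 to 5480 ppm over the 12 libraries) and Vim (1030 to 1750 ppm) made up most of the progenitor sums. The next highest progenitor marker, Sox2, was at 88.9 to 128 ppm. Neuronal markers (5 of 5) summed to 2700 to 2800 ppm with Torin1 and 2610 to 2660 ppm with DMSO in total mRNA, and to 2800 to 3160 ppm with Torin1 and 2880 to 3020 ppm with DMSO in polysome mRNA. The sum of the 4 endothelial and meningeal markers also differed with treatment. It was 35.3 to 43.1 ppm in total Torin1 and 18.8 to 24.2 ppm in total DMSO libraries. In polysome mRNA it was 37.1 to 39.2 ppm with Torin1 and 23.4 to 28.1 ppm with DMSO. Col3a1 (7.06 to 23.3 ppm over the 12 libraries) and Cldn5 (5.23 to 17.8 ppm) reached the highest levels of the 4. These markers were not compared by treatment one by one. The 6 markers of oligodendrocytes and astrocytes summed to 132 to 150 ppm with Torin1 and 113 to 121 ppm with DMSO in total mRNA, and to 150 to 188 ppm with Torin1 and 142 to 147 ppm with DMSO in polysome mRNA. Most of that came from Olig1 (48.7 to 102 ppm over the 12 libraries) and Olig2 (44.7 to 63.5 ppm). Mbp was at 15.2 to 20.7 ppm and Pdgfra at 1.26 to 4.14 ppm. The astrocyte markers Aqp4 (0.084 to 0.343 ppm) and Gfap (0.174 to 0.68 ppm) were low. Whether mature glia were present cannot be read from these sums. The 4 globin genes summed to 1310 to 1520 ppm in total Torin1 and 1210 to 1300 ppm in total DMSO libraries, and to 1650 to 2370 ppm in polysome Torin1 and 1530 to 1930 ppm in polysome DMSO libraries. Microglial markers (4 of 4) summed to 2.76 to 4.43 ppm in total Torin1 and 2.5 to 4.4 ppm in total DMSO libraries, and to 3.34 to 5.72 ppm in polysome Torin1 and 3.19 to 4.94 ppm in polysome DMSO libraries, with P2ry12 listed at 0 in at least 1 of the 12 libraries. The part of these cells in the results below was not tested. In bulk RNA, fewer cells of a type and less RNA per cell cannot be told apart. One library stood apart: the small nuclear RNA Rn7sk, part of the complex that restrains P-TEFb, reached 2069 ppm in total Torin1 replicate 2, against 38.7 to 182.8 ppm in the other total libraries.

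Sesn2 was the member that changed. It fell with Torin1 well below its DMSO level in both total and polysome mRNA. The other 4 genes did not pass the test in either fraction, so 1 of 5 members fell and 0 of 5 rose. Of all genes tested, 7.39% passed in total mRNA (4.35% fell and 3.04% rose) and 10% in polysome mRNA (5.45% fell and 4.57% rose).

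Sesn2, the best studied leucine sensor of the family (chromosome 4, 132492804 to 132510456, GRCm38), stood at 6.01, 6.11 and 5.74 ppm in the 3 total Torin1 libraries and at 13.7, 14.9 and 13.0 ppm in the 3 total DMSO libraries. Every Torin1 library lay below every DMSO library, with no overlap. The means were 5.95 ± 0.194 ppm with Torin1 and 13.9 ± 0.952 ppm with DMSO. This is a log2 fold of -1.21 (SE 0.13, 95% interval -1.50 to -0.92, adjusted p = 0.000539 in limma), or 0.433 times the DMSO level, and Sesn2 ranked 499 from the lowest fold among the 20240 genes. Polysome mRNA gave the same picture, with 5.54, 6.07 and 4.26 ppm in Torin1 libraries and 12.4, 15.0 and 13.1 ppm in DMSO libraries. Again the groups did not overlap, and the fold was -1.35 (SE 0.13, 95% interval -1.64 to -1.06, adjusted p = 8.41e-05 in limma), or 0.392 times. Without the library high in Rn7sk, the total mRNA fold of Sesn2 was -1.23 (limma, adjusted p = 0.00262).

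Sesn1, the family member first found as a p53 target (chromosome 10, 41810574 to 41908436), stayed in an overlapping range. In total mRNA it was at 17.2, 19.3 and 20.1 ppm with Torin1 and at 15.6, 17.0 and 18.6 ppm with DMSO. In polysome mRNA it was at 16.1, 20.8 and 18.3 ppm with Torin1 and at 14.9, 16.5 and 16.4 ppm with DMSO. The folds were 0.14 (95% interval -0.09 to 0.38, adjusted p = 0.503) in total mRNA and 0.20 (95% interval -0.04 to 0.44, adjusted p = 0.292 in limma) in polysome mRNA. Both intervals leave out a fall of the size seen for Sesn2. With libraries scaled by column total alone, Sesn1 passed in polysome mRNA at 0.45 (limma, adjusted p = 0.043), a scaling that also moved the median of all genes to 0.23, against 0 in the reported fit.

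Sesn3, the member linked to FOXO (chromosome 9, 14276301 to 14326134), was at 28.8, 25.2 and 29.5 ppm in total Torin1 libraries and at 29.6, 33.7 and 33.0 ppm in total DMSO libraries. Each Torin1 value lay below each DMSO value, although the nearest pair almost met, and the fold of -0.21 (95% interval -0.50 to 0.08) had an adjusted p = 0.42 in limma. In polysome mRNA the values overlapped, at 19.6, 19.2 and 14.9 ppm with Torin1 and 16.9, 21.0 and 15.3 ppm with DMSO, a fold of 0.02 (95% interval -0.27 to 0.31, adjusted p = 0.961 in limma).

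Castor2, the partner of CASTOR1 (chromosome 5, 134099748 to 134141782), was slightly lower with Torin1 in both fractions, without passing the test. Total mRNA held 22.9, 21.6 and 22.0 ppm with Torin1 and 26.2, 25.2 and 25.7 ppm with DMSO. Polysome mRNA held 21.6, 21.0 and 17.9 ppm with Torin1 and 23.0, 24.7 and 24.1 ppm with DMSO. The groups were apart in both fractions. The folds were -0.21 (SE 0.08, 95% interval -0.39 to -0.04, adjusted p = 0.138) in total and -0.25 (SE 0.08, 95% interval -0.43 to -0.08, adjusted p = 0.0694 in limma) in polysome mRNA. Castor2 passed in polysome mRNA at -0.26 with median-of-ratios scaling (limma, adjusted p = 0.049) and at -0.30 without polysome Torin1 replicate 1 (limma, adjusted p = 0.0314). With column total scaling, which set the median of all genes to 0.23, its polysome fold was -0.006 (limma, adjusted p = 0.991).

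Castor1, the arginine sensor itself (chromosome 11, 4218166 to 4222409), was near the lower end of what these libraries record. It had 0.240, 0.154 and 0.353 ppm in total Torin1 libraries and 0.349, 0.524 and 0.117 ppm in total DMSO libraries. In polysome mRNA it had 0.896, 0.523 and 0.173 ppm with Torin1 and 0.478, 0.397 and 0.528 ppm with DMSO. All groups overlapped, and the intervals were too wide to place a change, from -1.47 to 1.01 in total mRNA (fold -0.23, adjusted p = 0.872) and from -1.29 to 1.19 in polysome mRNA (fold -0.05, adjusted p = 0.981 in limma). No other RefSeq gene overlapped the span of any of the 5 genes, counted on either strand.

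**Figure D1:**
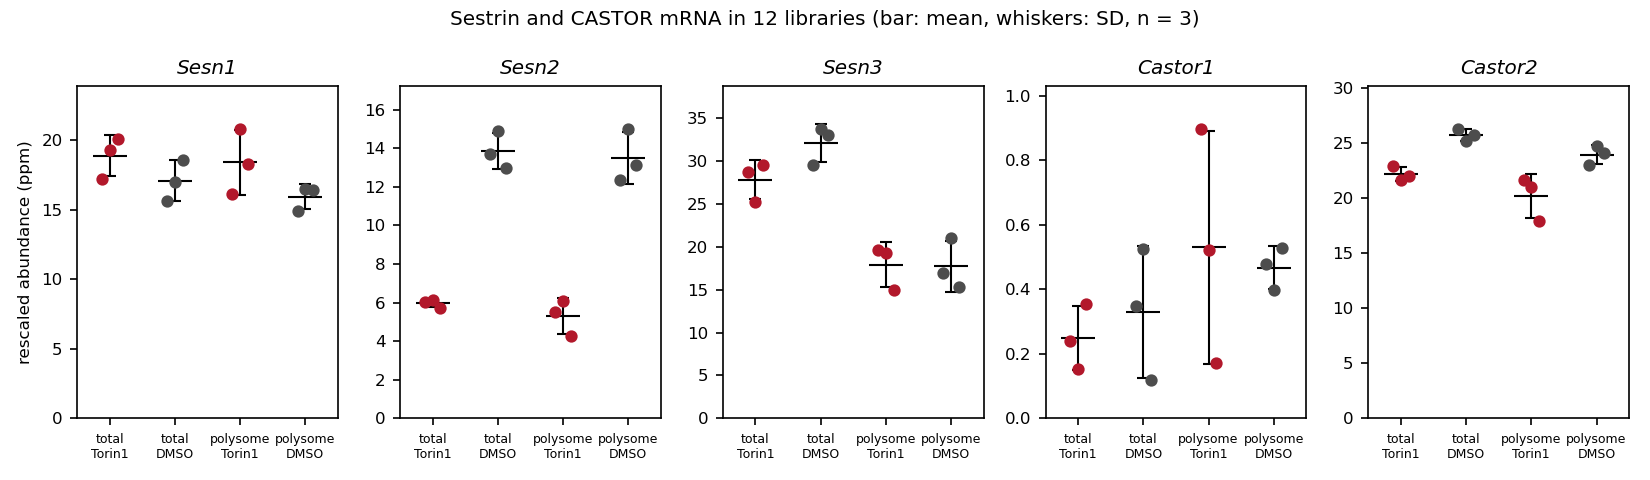
Rescaled abundance in ppm (y axis, from 0, its range set for each gene) of the 5 genes in each library; points are libraries, red for Torin1 and grey for DMSO, and bars with whiskers are the mean ± SD of n = 3. Sesn2 lies at 4.26 to 6.11 ppm with Torin1 and at 12.4 to 15.0 ppm with DMSO, whereas Sesn1 and Castor1 overlap between treatments in both fractions.

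Ratios between members within a library do not depend on how libraries are scaled. Their absolute size depends on the lengths of the transcripts, so only their change was read. Sesn2 over Sesn1 was 0.349, 0.317 and 0.286 in total Torin1 libraries and 0.877, 0.875 and 0.698 in total DMSO libraries, a log2 difference of -1.36. In polysome mRNA it was 0.344, 0.292 and 0.233 with Torin1 and 0.831, 0.908 and 0.800 with DMSO, a log2 difference of -1.56. Sesn2 over Sesn3 differed by -1.01 in total and -1.38 in polysome mRNA. In these 4 comparisons no library of one treatment overlapped the other, and each reached the smallest p that 3 against 3 libraries allow (exact permutation test, two-sided, p = 0.1, 0.16 after adjustment over the 8 ratios tested). Within each fraction, the ratio of Sesn2 to either paralog was lower in every Torin1 library than in every DMSO library. Sesn1 over Sesn3 was higher with Torin1 by 0.35 in total mRNA, with the groups apart (exact permutation p = 0.1, adjusted 0.16), and by 0.18 in polysome mRNA, with overlap (exact permutation p = 0.4, adjusted 0.533). Castor1 over Castor2 differed by -0.03 in total (exact permutation p = 1.0) and 0.15 in polysome mRNA (exact permutation p = 0.8), and its libraries overlapped.

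**Figure D2:**
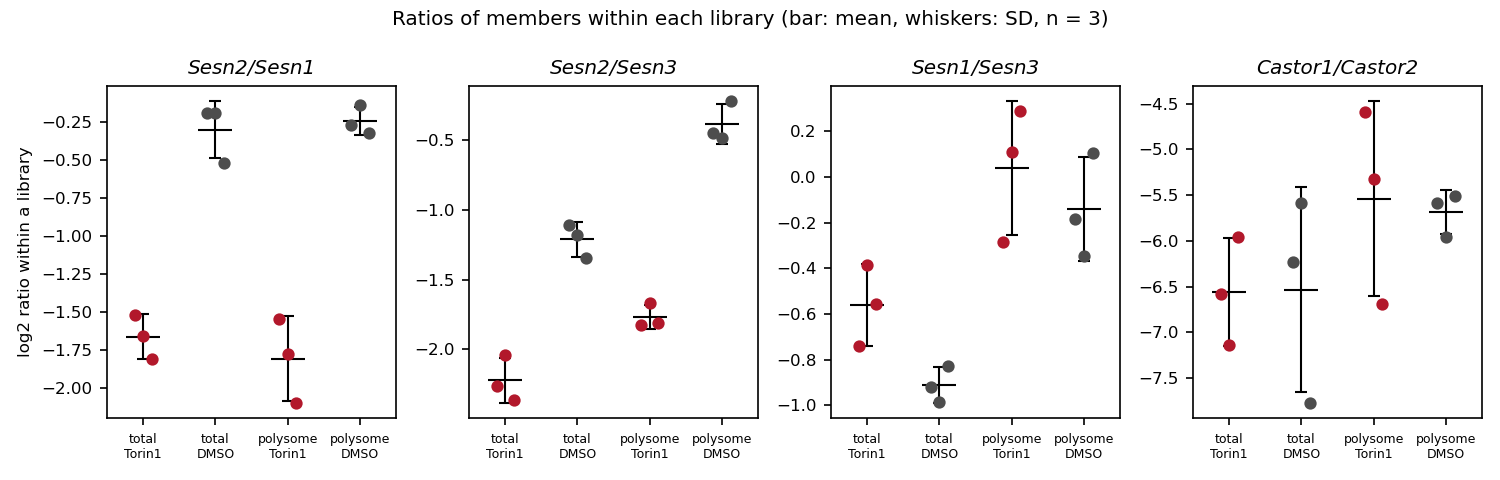
Log2 ratio of 2 members within the same library (y axis) for 4 pairs; points are libraries, red for Torin1 and grey for DMSO, and bars with whiskers are the mean ± SD of n = 3. Both ratios with Sesn2 on top are lower in every Torin1 library than in any DMSO library of the same fraction, while Castor1/Castor2 overlaps.

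Comparing polysome with total mRNA asks what share of an mRNA was on more than 3 ribosomes, relative to other mRNAs. Sesn3 was the member that was lower in polysomes. Its polysome level was 17.9 ± 2.59 ppm against a total level of 27.8 ± 2.32 ppm with Torin1, and 17.7 ± 2.93 ppm against 32.1 ± 2.21 ppm with DMSO. The folds were -0.64 with Torin1 (SE 0.13, 95% interval -0.93 to -0.35, adjusted p = 0.00199) and -0.87 with DMSO (SE 0.13, 95% interval -1.16 to -0.58, adjusted p = 0.000209 in limma), with no overlap of fractions in either treatment. So 1 of 5 members passed in each treatment, which was no rare call: 39.6% of all genes tested passed with Torin1 (19.2% lower in polysomes) and 41% with DMSO (20.5% lower). Sesn2 differed little between fractions, by -0.18 with Torin1 (95% interval -0.48 to 0.11, adjusted p = 0.317) and -0.04 with DMSO (95% interval -0.33 to 0.25, adjusted p = 0.841 in limma). Sesn1 gave -0.04 with Torin1 and -0.10 with DMSO, and Castor2 -0.14 and -0.10, with adjusted p between 0.192 and 0.805 in limma. Castor1 gave 0.77 with Torin1 (95% interval -0.47 to 2.01, adjusted p = 0.326) and 0.59 with DMSO (95% interval -0.65 to 1.83, adjusted p = 0.452 in limma). Under column total scaling Sesn1 at -0.47 (limma, adjusted p = 0.0133) and Castor2 at -0.48 (limma, adjusted p = 0.00579) also passed as lower in DMSO polysomes, where that scaling set the median of all genes to -0.37.

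Whether Torin1 changed the polysome association of a member was tested by the interaction, the Torin1 fold in polysomes minus that in total mRNA. None of the 5 passed (0 of 5, limma), none had an unadjusted p under 0.05, and 0.726% of all genes tested did pass (0.0198% higher and 0.707% lower). The differences were -0.14 for Sesn2 (95% interval -0.55 to 0.27), 0.06 for Sesn1 (-0.28 to 0.39), 0.22 for Sesn3 (-0.18 to 0.64), -0.04 for Castor2 (-0.28 to 0.21) and 0.17 for Castor1 (-1.58 to 1.93). A miss of the threshold does not show that the 2 fractions responded alike, and the intervals give the differences still allowed. With column total scaling the signs for Sesn2 (0.13) and Castor2 (0.23) turned.

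**Figure D3:**
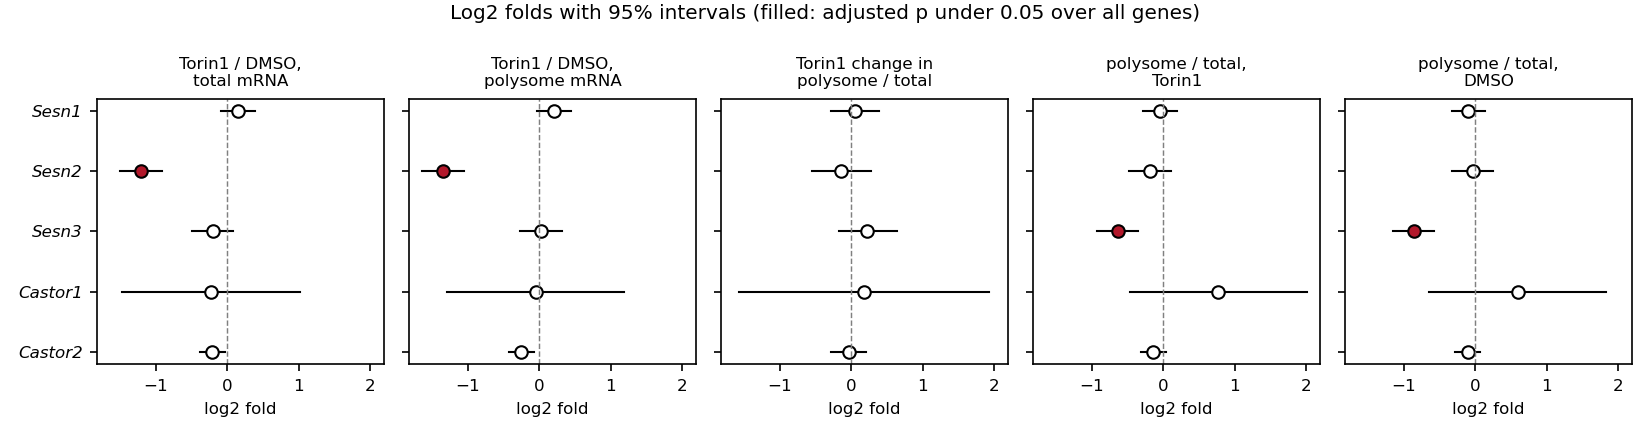
Log2 folds (x axis) of the 5 genes (rows) in 5 comparisons, with 95% intervals as lines; red points have an adjusted p under 0.05 over all genes. Sesn2 is filled in both Torin1 comparisons, at -1.21 and -1.35, and Sesn3 in both fraction comparisons, at -0.64 and -0.87.

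Downstream of the sensors come the complexes that carry their signal. All 5 GATOR2 genes failed to pass in either fraction, among them the most abundant, Sec13, with folds of -0.18 in total and -0.16 in polysome mRNA (limma, adjusted p = 0.116 and 0.128). Of 3 GATOR1 genes, Nprl3 rose in polysome mRNA, at 18.0 ± 2.77 ppm with Torin1 and 12.4 ± 0.625 ppm with DMSO (log2 fold 0.52, limma, adjusted p = 0.0243), and the most abundant in the list, Depdc5, had -0.05 in total mRNA. Of the 4 matched genes of KICSTOR, the scaffold that places GATOR1 on lysosomes, and SAMTOR, the methionine-pathway sensor, Itfg2 rose in polysome mRNA, at 38.0 ± 0.919 ppm with Torin1 and 26.6 ± 1.62 ppm with DMSO (log2 fold 0.51, limma, adjusted p = 0.0213). Both calls were lost in 3 of 6 fits with 1 library less, without DMSO replicate 1 or 3 in each case and without Torin1 replicate 1 for Nprl3 or replicate 2 for Itfg2 (highest adjusted p = 0.0853 and 0.0832). Of 12 Rag, Ragulator and folliculin genes, Rraga, which encodes the RagA GTPase, fell in total mRNA to 74.3 ± 3.05 ppm with Torin1, against 96.7 ± 4.92 ppm with DMSO (log2 fold -0.38, limma, adjusted p = 0.00383), and in polysome mRNA by 0.29 on the log2 scale (limma, adjusted p = 0.0123). Its polysome fold was -0.04 with column total scaling (limma, adjusted p = 0.828). Across these 4 groups, 1 of 24 genes fell and 0 rose in total mRNA, and 1 fell and 2 rose in polysome mRNA. Of all genes tested, 4.35% fell and 3.04% rose in total mRNA, and 5.45% fell and 4.57% rose in polysome mRNA, so these counts lie near the background.

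Among the other sensors, Rnf167, which encodes a ubiquitin ligase described for SESN2 in human cells, rose in total mRNA, at 38.7 ± 0.975 ppm with Torin1 and 31.2 ± 2.08 ppm with DMSO (log2 fold 0.31, limma, adjusted p = 0.0359). Lars, the leucyl-tRNA synthetase gene, rose in polysome mRNA, at 33.4 ± 3.63 ppm with Torin1 and 26.5 ± 1.47 ppm with DMSO (log2 fold 0.33, limma, adjusted p = 0.032). Both calls were fragile. Rnf167 was lost without each of the 6 total libraries in turn (highest adjusted p = 0.131, without DMSO replicate 3), and Lars in 5 of 6 fits, all but the one without polysome Torin1 replicate 1 (highest adjusted p = 0.124, limma). Slc38a9, the lysosomal arginine sensor, was at 4.58 ± 0.767 ppm with Torin1 and 4.09 ± 0.868 ppm with DMSO in total mRNA and did not pass (limma, adjusted p = 0.754). Slc38a9 was named after its values were seen. Of the 10 leucine and arginine transporter genes, none passed in total mRNA, where 7.39% of all genes tested passed. Only Slc3a2, the heavy chain of several such transporters, passed in polysome mRNA (log2 fold 0.26, limma, adjusted p = 0.0309), where 10% of all genes tested passed. That call was lost in 4 of 6 fits with 1 library less, without polysome DMSO replicate 1 or 3 and without polysome Torin1 replicate 1 or 2. Of 13 genes of leucine and arginine metabolism, Bckdha, a subunit of the branched-chain keto acid dehydrogenase, was the one that passed. Bckdha rose in both fractions, where 7.39% (total) and 10% (polysome) of all genes tested passed. Its polysome level was 52.1 ± 2.66 ppm with Torin1 and 32.3 ± 2.37 ppm with DMSO (log2 fold 0.69, limma, adjusted p = 0.000128).

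In the target complex, Mtor itself did not pass, with folds of -0.11 in total and 0.11 in polysome mRNA (limma, adjusted p = 0.653 and 0.604). Of the 9 genes of mTORC1, Rheb and TSC, 1 rose in total and 2 in polysome mRNA, while 3.04% and 4.57% of all genes tested rose. Deptor, an inhibitory partner of mTOR, rose in both fractions, at 19.2 ± 1.78 ppm with Torin1 and 10.7 ± 1.09 ppm with DMSO in total mRNA (log2 fold 0.85, limma, adjusted p = 0.00555). In polysome mRNA Deptor was at 6.92 ± 0.518 ppm with Torin1 and 3.18 ± 0.655 ppm with DMSO (log2 fold 1.12, limma, adjusted p = 0.000594). Tsc1, which encodes a scaffold of the TSC complex, rose in polysome mRNA alone by the test (log2 fold 0.33, limma, adjusted p = 0.0235), and that call was lost without polysome DMSO replicate 3 (adjusted p = 0.0976) or polysome Torin1 replicate 2 (adjusted p = 0.0706). None of the 6 tested genes of AMPK, a kinase that Sestrins are known to bind, passed in either fraction. The shares of all genes passing were 7.39% in total and 10% in polysome mRNA. Prkab1, the most abundant AMPK gene in the list, had folds of 0.03 and 0.01. Prkag2 was nearer the threshold, at -0.34 in total and -0.34 in polysome mRNA (limma, adjusted p = 0.063 and 0.0532). Prkab2 had 0.41 in polysome mRNA (limma, adjusted p = 0.0876). Both were named after their values were seen. In polysome mRNA 1 AMPK gene fell with the replicate block, and 1 rose with column total scaling. With a mean of at least 1 ppm, 1 fell in each fraction.

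The programmes known to act on Sestrin genes gave different counts. Of 25 genes of the ATF4 programme, which raises Sesn2 under amino acid stress, 6 fell and 0 rose in total mRNA, with a median fold of -0.11, against -0.01 over all genes. In polysome mRNA 5 fell and 2 rose, with a median of -0.10, against 0 over all genes. The shares of all genes tested were 4.35% falling and 3.04% rising in total mRNA, and 5.45% falling and 4.57% rising in polysome mRNA. Atf4 was at 216 ± 1.38 ppm with Torin1 and 285 ± 5.52 ppm with DMSO in total mRNA (log2 fold -0.40, limma, adjusted p = 0.00252). Chac1, which degrades glutathione, fell to 6.34 ± 1.31 ppm with Torin1, against 14.8 ± 0.513 ppm with DMSO, in total mRNA (log2 fold -1.24, limma, adjusted p = 0.000694). Mthfd2, a mitochondrial folate enzyme, fell to 28.3 ± 1.44 ppm with Torin1, against 55.9 ± 1.79 ppm with DMSO, in polysome mRNA (log2 fold -0.98, limma, adjusted p = 1.42e-05). Trib3, a pseudokinase, had folds of -1.63 in total and -1.57 in polysome mRNA (limma, adjusted p = 0.0323 and 0.0307), and those calls were lost without each of the 6 total libraries and in 5 of 6 polysome fits, all but the one without Torin1 replicate 2. Without 1 total library at a time the fallen genes numbered 3 (without DMSO replicate 3, Torin1 replicate 2 or Torin1 replicate 3) or 4, and with column total scaling 3. In polysome mRNA 3 fell without any 1 DMSO library, 4 without any 1 Torin1 library, while the 2 rises became 0 without DMSO replicate 1, DMSO replicate 3 or Torin1 replicate 1 and 1 without Torin1 replicate 2, and with column total scaling 2 fell and 3 rose. The polysome call on Atf4 (log2 fold -0.26, limma, adjusted p = 0.0181) was lost without DMSO replicate 1 (adjusted p = 0.0766) or Torin1 replicate 2 (adjusted p = 0.061), and its fold was -0.01 with column total scaling.

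Of 10 genes of the KEAP1-NRF2 axis, 1 fell and 0 rose in total mRNA (4.35% and 3.04% of all genes tested). In polysome mRNA 0 fell and 1 rose (5.45% and 4.57% of all genes tested). Their median folds were -0.22 in total and -0.18 in polysome mRNA, against -0.01 and 0 over all genes. With the compared groups alone 4 fell in total mRNA and none passed in polysome mRNA. Srxn1, the sulfiredoxin that works with Sestrins on peroxiredoxins, fell in total mRNA to 7.13 ± 1.57 ppm with Torin1, against 12.3 ± 1.73 ppm with DMSO (log2 fold -0.80, limma, adjusted p = 0.0393). That call was lost in 5 of 6 fits with 1 library less, all but the one without Torin1 replicate 3 (highest adjusted p = 0.144). Sqstm1, the autophagy receptor p62, rose in polysome mRNA (log2 fold 0.36, limma, adjusted p = 0.00912). Of 21 genes of p53 and its targets, 4 fell and 2 rose in total mRNA, and 4 fell and 3 rose in polysome mRNA, with medians of -0.18 and -0.10, beside 4.35% falling and 3.04% rising among all genes tested in total mRNA, and 5.45% falling and 4.57% rising in polysome mRNA. Phlda3, an inhibitor of AKT, fell in both (log2 fold -0.94 in total and -1.16 in polysome mRNA, limma, adjusted p = 0.000815 and 8.28e-05), whereas Btg2, an antiproliferative gene, rose in total mRNA by 0.68 (limma, adjusted p = 0.000114) and Pmaip1, the proapoptotic NOXA, rose in polysome mRNA by 1.19 (limma, adjusted p = 0.00336). Without 1 total library at a time 1 of the p53 genes rose and 2 or 3 fell, 2 without Torin1 replicate 1 or 3. With column total scaling 1 rose and 2 fell in total mRNA, and 3 rose and 2 fell in polysome mRNA.

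Of 23 FOXO factors and targets, 10 rose and 0 fell in each fraction, and 10 rose in both, with medians of 0.28 and 0.38, while 3.04% of all genes tested rose in total and 4.57% in polysome mRNA. Klf4, a transcription factor, was at 6.82 ± 1.96 ppm with Torin1 and 1.97 ± 0.374 ppm with DMSO in total mRNA (log2 fold 1.74, limma, adjusted p = 0.0015). Foxo1 was at 5.68 ± 0.343 ppm with Torin1 and 2.50 ± 0.221 ppm with DMSO in total mRNA (log2 fold 1.17, limma, adjusted p = 0.002). Bcl6, a repressor of transcription, was at 4.92 ± 0.224 ppm with Torin1 and 2.18 ± 0.529 ppm with DMSO in polysome mRNA (log2 fold 1.18, limma, adjusted p = 0.000889). Sesn3, the Sestrin known as a FOXO target, was not among the genes that rose. Without 1 total library at a time 6 to 8 of these genes rose, 6 of them without DMSO replicate 2, Torin1 replicate 2 or Torin1 replicate 3, and with column total scaling 6. In polysome mRNA 8 to 10 rose without 1 library at a time, and 13 with column total scaling.

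**Figure D4:**
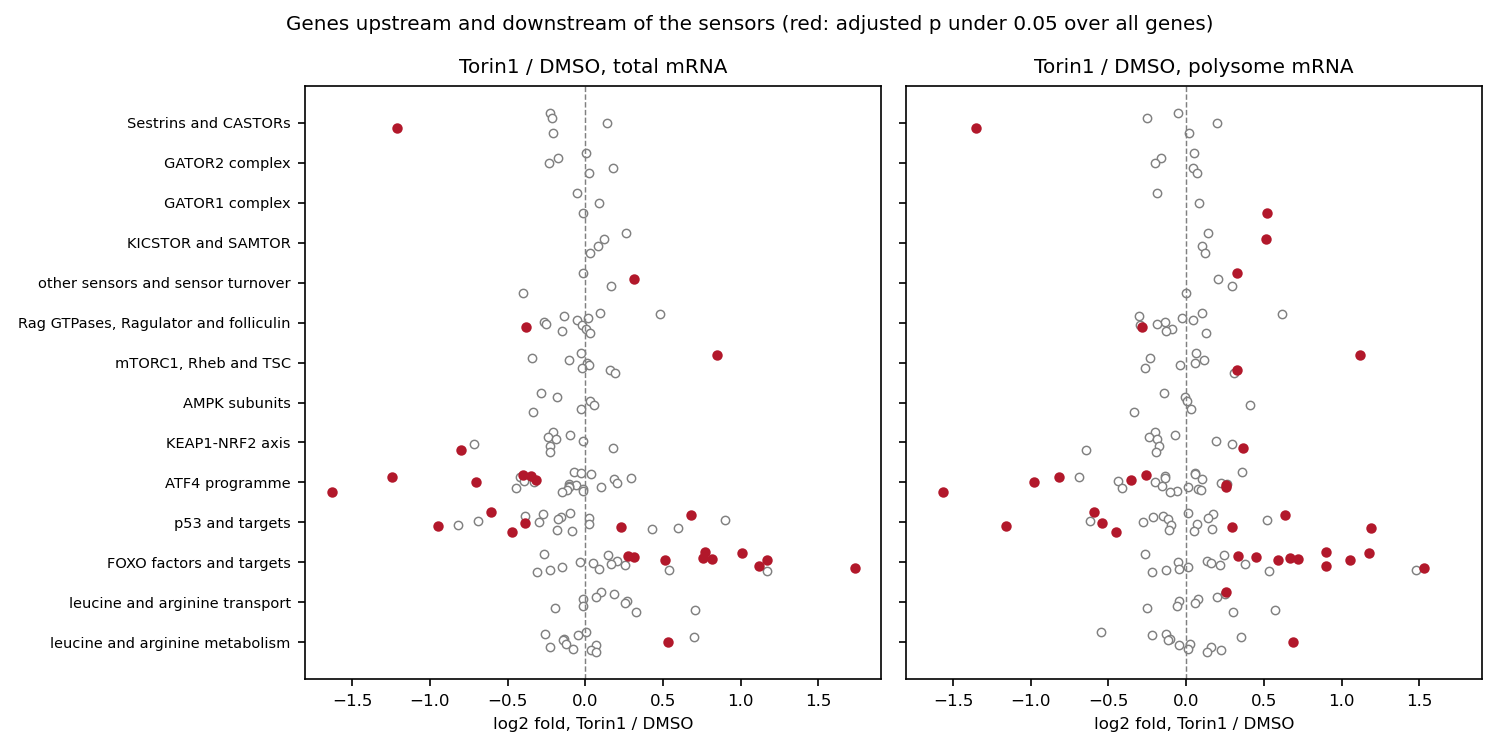
Log2 fold of Torin1 over DMSO (x axis) of each tested gene (point) of the Sestrins and CASTORs and of 13 gene lists (rows), in total mRNA on the left and polysome mRNA on the right; red points have an adjusted p under 0.05 over all genes, and the vertical spread within a row has no meaning. Sesn2 stands at -1.21 and -1.35 apart from the open points of the other members, and the FOXO row holds 10 red points above 0 on each side.

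Among all genes tested, 615 rose and 881 fell in total mRNA (41.1% of the calls were rises), and 925 rose and 1103 fell in polysome mRNA (45.6% rises). With column total scaling the split was 329 rises and 512 falls in total mRNA (39.1% rises), but 2911 rises and 329 falls in polysome mRNA (89.8% rises). For polysome over total mRNA in DMSO it gave 1853 higher and 6708 lower calls (21.6% higher), against 4159 and 4147 (50.1% higher) in the reported fit, and for the interaction 32 higher and 119 lower (21.2% higher), against 4 and 143 (2.72% higher). Sesn2 fell in both fractions under either scaling.

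The genes whose pattern was most like that of each member were found by Pearson's r of log2 values over the 12 libraries, among 8689 expressed genes (8690 for Castor1, which is not itself among the expressed genes). The libraries share treatment and fraction, so such an r can restate group differences, and it is given as a description. For Castor1, whose groups overlapped, r rests on values of 0.117 to 0.896 ppm, near the lower end of what was recorded. Closest to Sesn2 were Cdr2l (r = 0.9923), Lrrc4b (r = 0.9874) and Mapk14 (r = 0.9827), which encodes the p38α kinase. Mapk14 averaged 21.2 ppm in total Torin1 and 31.4 ppm in total DMSO libraries, and 20.4 ppm in polysome Torin1 and 31.5 ppm in polysome DMSO libraries. Closest to Castor2 were Tent4a (listed as Papd7, r = 0.986) and Samd4b (r = 0.9743), which averaged 46.3 ppm in total Torin1 and 57.2 ppm in total DMSO libraries. Ss18l1 (r = 0.9927), Actb (r = 0.9727), the beta-actin gene, and Slc1a1 (r = 0.9718) were closest to Sesn3, and Actb averaged 1380 ppm in polysome Torin1 and 1990 ppm in total Torin1 libraries. For Sesn1 they were Agap1 (r = 0.9142) and Isl1 (r = 0.8652), and for Castor1 Dazap1 (r = 0.9114), Nelfcd (r = 0.8603) and Olfm1 (r = 0.8595). Among the members themselves Sesn2 and Castor2 were the pair with the highest r, at 0.876, Sesn3 and Castor2 had 0.567, and Sesn1 and Sesn2 had -0.548.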

How the data were processed

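Total and polysome mRNA of mouse cortical progenitor cells were sequenced in 12 libraries, with groups taken from the sample titles. The build mm10, the aligner STAR 2.7.9a and HTSeq 0.6.0 are listed, per the submitters' processing notes. The authors deposited a signal per gene. Its nonzero values were whole multiples of 1 step in every library (100%, within a tolerance of 0.011), at 99969757 to 99976837 steps a column, and a step is therefore tied to a library's sum rather than to a sequenced read. Sequencing depth is thus unknown and no counting interval is given. The sources used here do not say how the signal was scaled or whether counting used strand. No sample column was left over (0 others).

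Each column was divided by its total and by a trimmed, unweighted mean of its log ratios (own code, leaving off 0.3 of ratios and 0.05 of abundances). Factors averaged 1.00 for polysome Torin1, 0.846 for polysome DMSO, 1.08 for total Torin1 and 1.10 for total DMSO. Genes listed at 1 or more in 3 or more libraries were tested with limma 3.58.1 (R 4.3.3) on log2(value + 1), with 4 group means and a variance trend, at an adjusted p of 0.05. All values are relative within a library. Nothing states that replicates came from separate animals, so p-values measure the spread between these samples. Ratios were tested by exact permutation (SciPy 1.17.1). On simulated data for the total mRNA comparison with 19738 genes, the fit recovered 68 of 100 genes changed 1.5-fold and 90 of 100 changed 2-fold, with 11 false calls. The simulated noise was drawn from a normal distribution, separately for each gene and library. These figures need not hold for the measured libraries.

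Members, gene lists and motifs were chosen with earlier results of these data known. All members are named, with the 3 expressed genes (mean log2 ppm of at least 3) most like each, and from each of 13 lists the 2 largest folds past the threshold in each fraction, or the most abundant gene where none passed. Mtor and Atf4 were always named. Some genes that this rule names are not reported here. Kics2 was not matched in the table. SAMTOR was looked up as Bmt2 once the data were seen. As alternatives, libraries were scaled in 2 other ways, filtered in 2 other ways, fitted with the compared groups alone, with blocks, with 0.1 as the pseudocount, and with each library left out. Recounting the lists and their named genes under these was chosen after seeing the data. Levels per transcript length, also planned, were not computed, as lengths were not used here.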

Additional observations from a re-analysis of the deposited data

How the results depend on the processing

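The fall of Sesn2 passed the test under all alternatives run, at -1.23 to -1.19 in total and -1.36 to -1.11 in polysome mRNA, and at -1.25 to -1.16 and -1.45 to -1.21 with 1 library left out. The lower polysome level of Sesn3 also passed throughout, at -0.99 to -0.77 in DMSO and -0.71 to -0.51 in Torin1 with 1 library left out. With column total scaling the polysome fold of Castor1 (0.17) and the interactions of Castor2 (0.23) and Sesn2 (0.13) changed sign, as did Sec13 in polysome mRNA (0.085), and Sesn1 (0.45) passed in polysome mRNA, as did Sesn1 (-0.47) and Castor2 (-0.48) for DMSO polysome over total mRNA. The polysome fold of Castor2 was -0.006 there. That scaling called 841 genes in total and 3240 in polysome mRNA. Castor2 passed in polysome mRNA at -0.26 with median-of-ratios scaling, and Prkab1 was at -0.003 there and with the compared groups alone. Fits of the compared groups alone called 2700 and 739 genes. In polysome mRNA they lost the calls on Atf4, Rraga, Nprl3, Tsc1, Lars, Slc3a2, Sqstm1 and Trib3 (limma, adjusted p from 0.0795 to 0.198) and left 2 fallen genes of the ATF4 programme and 7 risen FOXO genes. Column total scaling lost Rnf167 (limma, adjusted p = 0.125) and Trib3 (limma, adjusted p = 0.0526 in total and 0.0586 in polysome mRNA), and no filter lost Srxn1 (limma, adjusted p = 0.0521). The cause was not tested.

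Deviations of same-numbered libraries had correlations of mixed sign (r from -0.277 to 0.328 between treatments and -0.063 to 0.073 between fractions, over 9187 genes). The numbers were not taken as pairs. A low r between fractions cannot show that the total and polysome libraries came from different lysates, which the labels leave unsaid. The replicate block called 1269 genes in total and 1868 in polysome mRNA and changed the call of no member (Sesn2 -1.21, limma, adjusted p = 0.0008). Of the named list genes it lost Lars (0.33, limma, adjusted p = 0.0558). The replicate block by culture called 91 genes in the interaction.

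With 1 library left out, genes called numbered 739 to 898 in total mRNA (739 without DMSO replicate 1), 1194 to 2722 in polysome mRNA (1194 without DMSO replicate 3, 1262 without DMSO replicate 1) and 99 to 224 in the interaction (224 without polysome Torin1 replicate 3). Fewer libraries were fitted in each. Torin1 folds ran from -0.717 to 0.145 for Castor1 in total and -0.515 to 0.511 in polysome mRNA, -0.305 to -0.168 for Castor2 in polysome mRNA, and -0.081 to 0.147 for Sesn3 in polysome mRNA. The interaction ran from -0.288 to 0.738 for Castor1, -0.091 to 0.047 for Castor2, -0.026 to 0.147 for Sesn1 and -0.239 to 0.003 for Sesn2. Polysome over total mRNA ran from -0.134 to 0.049 for Sesn1 in Torin1 and -0.119 to 0.02 for Sesn2 in DMSO. Castor1 over Castor2 ran from -0.647 to 0.445 in total and -0.322 to 0.728 in polysome mRNA. Depdc5 ran from -0.103 to 0.008 in total mRNA, and Prkab1 from -0.007 to 0.082 in total and -0.055 to 0.077 in polysome mRNA. At a mean of at least 1 ppm Castor1 was filtered out and has no value.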
